A study of Mus musculus with 15 samples.

Results

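Dbpht2, Thoc2 and Rragb are 3 genes of the 15569 in the table, of which 15556 were tested, and they were selected on the measured values of these libraries: their striatal RNA was higher after exposure to a mixture of paraquat and titanium dioxide (TiO2) than the sum of the effects of either agent alone would give. The members were thus chosen by the interaction, which is the log2 mean of the mixture minus that of paraquat minus that of TiO2 plus that of control. Its values, the differences of paraquat and of TiO2 from control, and the differences of the mixture from either agent are given as a description, without a test. The striatum, the part of the basal ganglia that receives cortical input, came from C57Bl/6J mouse pups at postnatal day 14 whose mothers had been exposed to aerosols while pregnant. The groups were 4 untreated control libraries, 3 paraquat libraries, 4 TiO2 libraries and 4 libraries of the mixture of paraquat and TiO2. Paraquat is a herbicide that cycles between redox states, and TiO2 was given as nanoparticles. No dose, litter, sex or date is stated in the labels, and nothing in them says that the libraries came from separate animals, so a p-value here covers the spread from library to library, which may be technical. The interaction is on a log scale, so the expectation set against the mixture is multiplicative.

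Thoc2 encodes the scaffold subunit of the THO complex. THO joins the helicase Ddx39b and the adaptor Alyref in the TREX complex, which loads onto RNA during transcription and hands finished mRNA to the export receptor Nxf1. Rragb encodes RagB, a small GTPase that pairs with RagC or RagD on the lysosome. The Ragulator subunits Lamtor1 to Lamtor5 anchor the Rag pair there, and when amino acids are plentiful the pair recruits the kinase complex mTORC1, which promotes growth and protein synthesis. Variants of THOC2 are a known cause of X-linked intellectual disability in people, and the mouse gene is also on the X chromosome. For Dbpht2 the annotations differ: GENCODE M21 lists a long intergenic non-coding RNA and RefSeq a protein-coding gene.

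On GRCm38, Dbpht2 lies at chr12:74296668-74302008 on the plus strand, Thoc2 at chrX:41794991-41920674 on the minus strand and Rragb at chrX:153139981-153171943 on the plus strand. To show how unlike the starts of 3 genes with a shared pattern of values are, the 250 bases before each RefSeq start (RefSeq, GRCm38.p6) are printed below, 5′ to 3′ in the direction of transcription. The windows are chr12:74297224-74297473 (plus strand), chrX:41911902-41912151 (minus strand) and chrX:153139708-153139957 (plus strand). Capitals mark matches on either strand to 7 motifs: the GC box GGGCGG, the CCAAT box CCAAT, the TATA box TATAAA, the cyclic AMP response element TGACGTCA, the E-box CACGTG, the antioxidant response element core TGACNNNGC and the NRF1 motif, which is a palindrome searched by its letters.
Dbpht2: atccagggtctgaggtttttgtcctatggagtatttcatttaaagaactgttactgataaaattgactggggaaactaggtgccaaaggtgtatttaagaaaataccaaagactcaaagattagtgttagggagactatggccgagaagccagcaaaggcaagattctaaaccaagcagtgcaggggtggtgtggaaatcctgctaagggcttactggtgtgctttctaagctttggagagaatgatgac
Thoc2: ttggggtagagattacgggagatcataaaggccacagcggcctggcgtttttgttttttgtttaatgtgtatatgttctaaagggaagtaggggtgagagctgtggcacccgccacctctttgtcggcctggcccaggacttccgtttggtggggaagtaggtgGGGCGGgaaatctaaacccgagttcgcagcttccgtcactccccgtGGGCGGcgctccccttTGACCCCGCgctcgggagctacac
Rragb: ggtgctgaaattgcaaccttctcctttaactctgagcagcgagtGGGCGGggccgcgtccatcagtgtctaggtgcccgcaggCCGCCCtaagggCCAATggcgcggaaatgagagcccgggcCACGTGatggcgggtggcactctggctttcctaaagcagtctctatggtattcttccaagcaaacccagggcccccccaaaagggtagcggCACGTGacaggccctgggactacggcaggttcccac

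The Dbpht2 window held none of the 7 motifs. Its GC content was 42.4% with 1 CpG, against a median of 52.4% and 6 CpG over the 32851 promoter windows of this length, and it overlaps an exon of the GENCODE gene, whose start lies further upstream. The Thoc2 window had a GC content of 57.2% with 16 CpG and held GC boxes starting at -86 and -40 from the start site and the antioxidant response element core at -24. It lies inside a longer GENCODE transcript of the gene but in no exon. The Rragb window had a GC content of 61.6% with 14 CpG and held GC boxes at -206 and -167, a CCAAT box at -155 and E-boxes at -127 and -36. Of all windows, 32.7% held a GC box and 16.7% at least 2 of them, 33.8% a CCAAT box, 10.2% the antioxidant response element core and 6.02% an E-box, while 0.429% held 2 or more E-boxes, as Rragb did. The motifs that none of the 3 windows held were in 12.4% (TATA box), 1.55% (cyclic AMP response element) and 0.782% (NRF1 motif) of all windows. No motif was in all 3 windows, and a match describes letters, not binding.

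Dbpht2 was high in control and in the mixture and lower after either agent alone. In normalised read counts, the 4 control libraries were at 985.2, 944.3, 970.3 and 970.2, and the 3 paraquat libraries at 631.2, 711.3 and 604.5. The 4 TiO2 libraries were at 725.3, 756.4, 742.6 and 771.7, and the 4 mixture libraries at 1012, 932.9, 820.9 and 1096. Every paraquat and TiO2 library was below every control and every mixture library, while control and mixture libraries overlapped. The group means were 967.5 ± 17.0 (SD, n = 4) in control, 649 ± 55.6 (SD, n = 3) after paraquat, 749 ± 19.8 (SD, n = 4) after TiO2 and 965.5 ± 117.2 (SD, n = 4) after the mixture, so the spread was widest in the mixture. Relative to control the means were 67.1% after paraquat, 77.4% after TiO2 and 99.8% after the mixture.

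Thoc2 showed the same order of groups with wider spread in control. The control libraries were at 1043, 882.4, 1012 and 1137, and the paraquat libraries at 630.2, 777.3 and 638.7. The TiO2 libraries were at 756.4, 696.4, 603.1 and 805.5, and the mixture libraries at 913.0, 845.0, 869.8 and 894.6. The highest library of a single agent, TiO2 4, stayed below the lowest mixture and control libraries, and only control 2 of the controls lay within the range of the mixture. The means were 1019 ± 105 (SD, n = 4), 682 ± 82.6 (SD, n = 3), 715.4 ± 87.1 (SD, n = 4) and 880.6 ± 29.6 (SD, n = 4) for control, paraquat, TiO2 and mixture. The mixture mean was 86.4% of control, against 67.0% after paraquat and 70.2% after TiO2.

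Rragb had the tightest control and paraquat groups of the 3 genes. The control libraries were at 942.7, 918.5, 945.8 and 946.6, and the paraquat libraries at 707.6, 707.3 and 712.4. The TiO2 libraries spread from 557.0 in TiO2 3 over 684.8 and 689.3 to 770.7 in TiO2 4, and the mixture libraries were at 844.7, 819.0, 872.9 and 911.0. Here the mixture libraries lay between the other groups, all above every library of a single agent and all below every control library. The means were 938.4 ± 13.4 (SD, n = 4), 709.1 ± 2.91 (SD, n = 3), 675.4 ± 88.3 (SD, n = 4) and 861.9 ± 39.5 (SD, n = 4), and the mixture mean was 91.8% of control, against 75.6% after paraquat and 72.0% after TiO2. Paraquat and TiO2 libraries overlapped for Thoc2 and Rragb, and for Dbpht2 every paraquat library was below every TiO2 library.

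**Figure D1:**
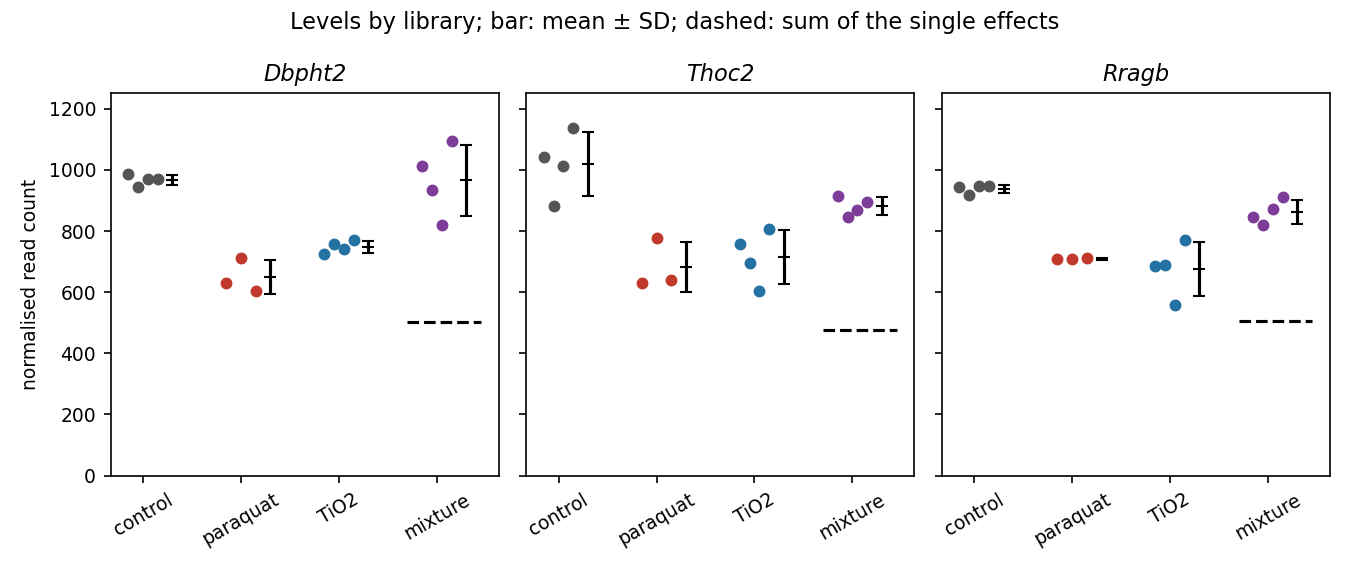
Normalised read count of Dbpht2, Thoc2 and Rragb (vertical axis) in each of the 15 libraries by group, with the mean and SD of each group. In all 3 genes the paraquat and TiO2 libraries sit below the control and mixture libraries, and for Rragb the mixture lies between 819.0 and 911.0, below the lowest control at 918.5.

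Group means were 667 to 992.5 reads per library. In the library with the fewest reads of a gene, counting error alone corresponds to a coefficient of variation of 3.97% for Dbpht2, 4.08% for Thoc2 and 4.25% for Rragb. Counting error is smaller in the other libraries, so this is an upper figure for each gene. Of the 12 groups of libraries 5 varied by less than that: the paraquat libraries (0.410%) and controls (1.43%) of Rragb, the controls (1.76%) and TiO2 libraries (2.64%) of Dbpht2 and the mixture libraries (3.36%) of Thoc2. These groups were tighter than this upper figure, near or below what their reads can resolve. All 3 genes were well expressed, with means over the 15 libraries above those of 86.5%, 86.3% and 85.8% of genes for Dbpht2, Thoc2 and Rragb.

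On the log2 scale, paraquat minus control was -0.58 ± 0.09 (SE) for Dbpht2, -0.58 ± 0.10 for Thoc2 and -0.40 ± 0.09 for Rragb. TiO2 minus control was -0.37 ± 0.08, -0.51 ± 0.09 and -0.48 ± 0.08 for the same genes. Of all genes tested, 10.3% had every paraquat library below every control library and 5.02% every TiO2 library below every control library. Mixture libraries all above the paraquat libraries occurred in 7.17% of genes, and all above the TiO2 libraries in 3.28%. The pattern that all 3 genes showed, both single agents below both control and mixture without overlap, was present in 59 of 15556 genes (0.379%), and nothing is read from these shares because the same values chose the genes.

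If the log2 effects of paraquat and TiO2 had added up, the mixture would have stood at 501.1 for Dbpht2, 475.8 for Thoc2 and 506.9 for Rragb. The geometric means of the mixture were 960.1, 880.2 and 861.2, which is 1.91, 1.85 and 1.70 times that expectation. For each of the 3 genes the expectation lay below the lowest of the 4 mixture libraries. The interaction was 0.94 ± 0.12 (SE) for Dbpht2, 0.89 ± 0.14 for Thoc2 and 0.76 ± 0.12 for Rragb. Among the 7766 genes with an interaction above 0 the 3 genes hold the first 3 places by p-value but places 201, 245 and 413 by size. The p-value depends on spread as well as size, and whether their spread was small for their level was not tested. Among the genes just outside were Psmd12 (0.87 ± 0.14), a proteasome subunit, and Gm48482 (1.17 ± 0.19). The smallest p-values in the other direction belonged to Nkain3 (-2.30), the X-linked deubiquitinase Usp9x (-1.18) and Xkr4 (-2.15). Of all genes tested, 11.8% passed an adjusted p of 0.05 for the interaction, 5.41% above 0 and 6.36% below.

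The mixture against control is a contrast that did not choose the genes: with equal numbers of libraries in those groups its estimate is uncorrelated with the interaction. Its standard error is not free of the choice, because an order by p-value favours small spread. The intervals may thus be too narrow and the p-values too small, here, between the agents and for Xist below. None of the 3 genes passed the test, where 1.19% of all genes did, 1.12% higher and 0.0707% lower (limma, Benjamini-Hochberg adjusted p under 0.05). For Dbpht2 the log2 difference was -0.01 ± 0.08 (SE), with a 95% interval of -0.18 to 0.16 and an adjusted p of 0.979 in limma. For Thoc2 it was -0.20 ± 0.09, with an interval of -0.40 to -0.01, an unadjusted p of 0.0378 and an adjusted p of 0.363 in limma. For Rragb it was -0.12 ± 0.08, with an interval of -0.29 to 0.04 and an adjusted p of 0.587 in limma, although all 4 mixture libraries were below all 4 controls, as in 3.37% of genes tested. These intervals leave room for a mixture level 0.40 log2 units under control for Thoc2, or lower still if they are too narrow.

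Paraquat and TiO2 were also compared with each other, a contrast whose estimate is nearly uncorrelated with the interaction. The difference, paraquat minus TiO2, was -0.21 ± 0.09 (SE) for Dbpht2, with an unadjusted p of 0.0254 and an adjusted p of 0.704 in limma. Its 3 paraquat libraries were all below its 4 TiO2 libraries, as in 2.87% of genes tested. The differences of Thoc2 (-0.07 ± 0.10, 95% interval -0.27 to 0.14) and Rragb (0.08 ± 0.09, interval -0.10 to 0.26) were smaller than their intervals, with adjusted p of 0.967 and 0.937 in limma. In limma 0 of 15556 genes (0%) passed this test, 997 had an unadjusted p under 0.05, and edgeR, DESeq2 and voom called 0, 15 and 0.

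**Figure D2:**
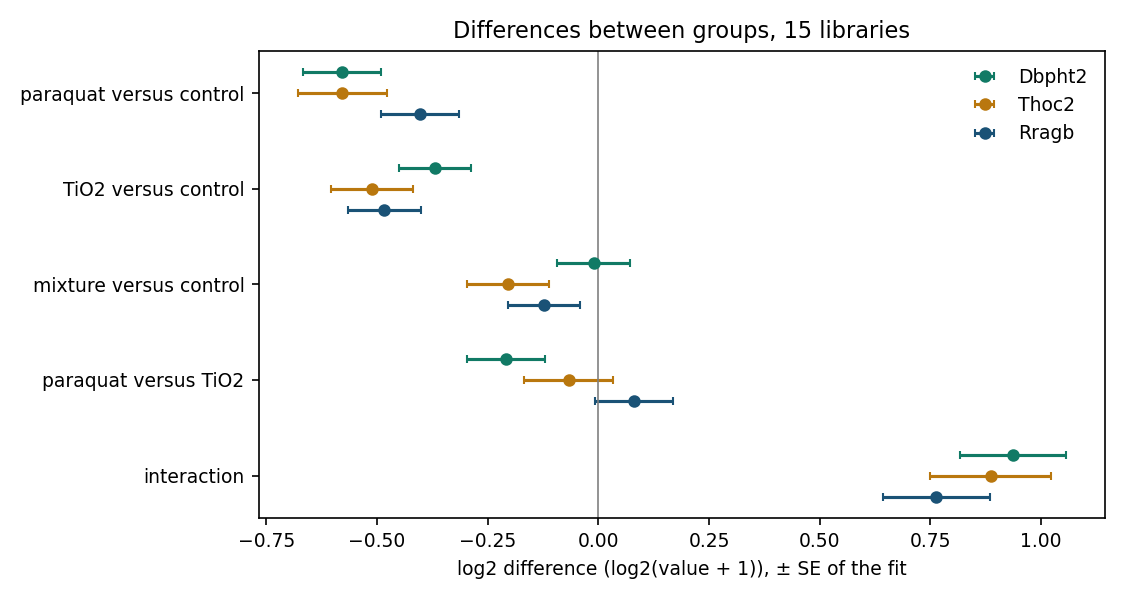
Log2 differences of Dbpht2, Thoc2 and Rragb in the comparisons named on the vertical axis, with the standard error of the limma fit as bars. The estimates after paraquat and TiO2 lie left of 0 and those of the interaction right of it, from 0.76 to 0.94, while the mixture minus control lies between -0.20 and -0.01.

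Since Thoc2 and Rragb are on the X chromosome and the labels give no sex, the level of Xist, the RNA that coats the inactive X in female cells, was added to the fit as a covariate. Xist ranged from 0.983 to 24100 over the libraries, and every group held libraries with high and with low Xist. None of the 3 genes passed the test of the Xist slope, where 0.0643% of genes did (0.0386% with a rising and 0.0257% with a falling slope). The slope per log2 unit of Xist was 0.0069 ± 0.0055 (SE) for Dbpht2 (adjusted p of 0.751 in limma). It was 0.0049 ± 0.0064 for Thoc2 (0.855) and 0.0007 ± 0.0057 for Rragb (0.986). The 95% intervals were -0.0044 to 0.0182, -0.0082 to 0.018 and -0.011 to 0.0123. Xist spans many log2 units, so these leave room for larger differences between low and high Xist. Ddx3x, a called gene, had a slope of 0.0359. Xist was 19.85, 22360 and 1.317 in paraquat 1, 2 and 3. Paraquat 2 was the highest paraquat library for Dbpht2 and Thoc2, but not for Rragb. The 10 genes called were Xist, its neighbour Jpx, the Y-linked Uty, Ddx3y, Kdm5d and Eif2s3y, and the X-linked Kdm6a, Ddx3x, 5530601H04Rik and Gm2223. Over the 568 other X-linked genes, 48 had an interaction called above 0 (8.45%, against 5.41% of all genes) and 34 below (5.99%, against 6.36%), with a median of 0.07 against 0.00 over all genes.

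Genes next to the members on the chromosome were compared to see whether the pattern extended along the DNA. Of 11 protein-coding genes of the table whose starts lie within 500 kb of a member's start, 1 had a called interaction, a share near the 11.8% of all genes. It was Stag2, a cohesin subunit 228.6 kb from Thoc2, at 0.48 ± 0.14 (adjusted p of 0.0295 in limma, and 0.179 with the GC trend removed). It was called against control after neither agent, with means of 407.7 in control, 329.2 after paraquat, 345.1 after TiO2 and 391.7 after the mixture. The other neighbour of Thoc2, the caspase inhibitor Xiap, had an interaction of 0.16 ± 0.12. Near Dbpht2 are the hypoxia factor Hif1a (0.47 ± 0.16, adjusted p of 0.0610 in limma), Snapc1 (0.17 ± 0.15) and Syt16 (0.12 ± 0.14). The 6 neighbours of Rragb, namely Foxr2, Klf8, Mageh1, Usp51, Ubqln2 and Shroom2, had interactions from -0.55 to -0.0039, none of them called. Thoc2 overlaps 1 annotated gene, the pseudogene Gm7657 on the other strand, which is not in the table, and Dbpht2 and Rragb overlap none. Of the 50-base stretches of their transcripts, 0.246% (Dbpht2), 0.169% (Thoc2) and 0.222% (Rragb) also occur in another gene, and Rragb shares none with its paralog Rraga.

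**Figure D3:**
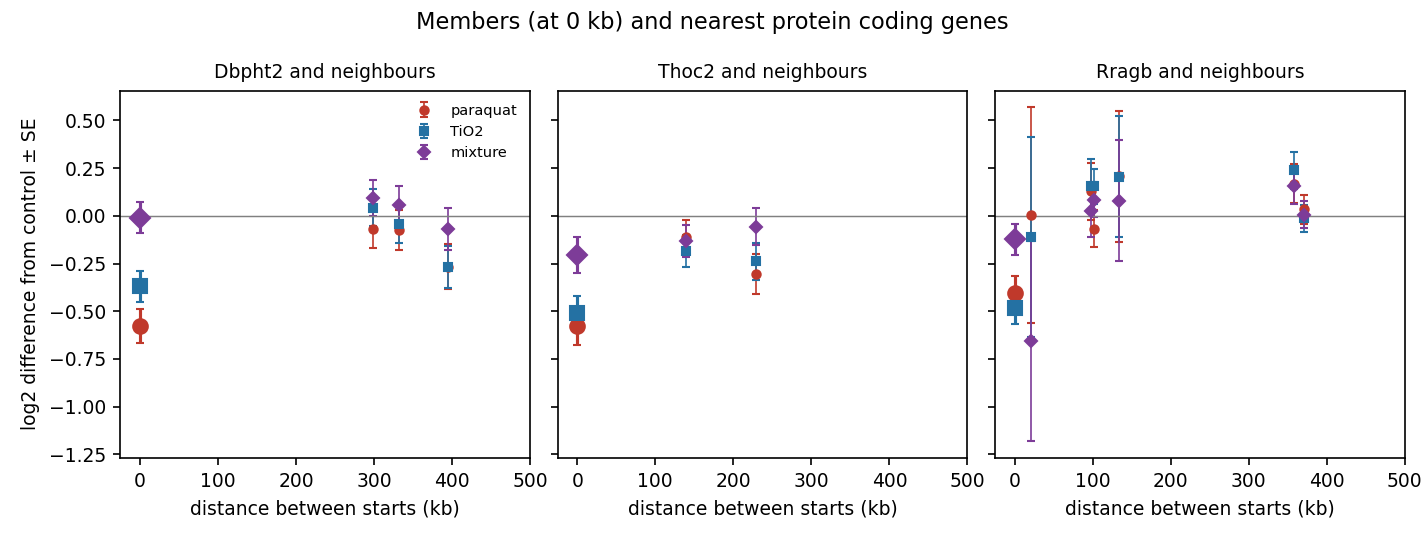
Log2 difference from control ± SE (vertical axis) after paraquat, TiO2 and the mixture against the distance between start sites in kb. Each of the panels shows 1 member and the protein-coding genes near it. Dbpht2, Thoc2 and Rragb stand at 0 kb, at -0.58, -0.58 and -0.40 after paraquat and at -0.37, -0.51 and -0.48 after TiO2. None of the neighbours was called against control after paraquat, TiO2 or the mixture.

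The partners of Thoc2 in mRNA export were compared with it next. Of its direct partners in the table, Thoc1, Thoc3, Thoc5, Thoc7, Alyref, Ddx39b and Nxf1, 0 of 7 were called in any comparison with control, between the agents or for the interaction, where 10.4% (paraquat), 6.4% (TiO2), 1.19% (mixture) and 11.8% (interaction) of all genes were called, so for 7 genes a count of 0 is near the background. At an unadjusted p under 0.05, limma gave 1 of the 7 after paraquat, 0 after TiO2, 0 after the mixture, 0 between the agents and 1 for the interaction. Thoc1 had the lowest paraquat estimate of the 7: its controls were at 427.8, 361.2, 391.5 and 386.3, paraquat at 328.5, 310.5 and 311.4, and the mixture at 369.4, 377.5, 385 and 373.3. Its TiO2 libraries split into 424.4 and 443.5 against 294.8 and 293, which covers the range of every other group.

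The wider export list (THO, TREX, TREX-2, the export receptor and cap binding) had 24 tested genes besides Thoc2. After paraquat 1 was called higher and 3 lower, where 10.4% of all genes were called, 6.34% higher and 4.06% lower, and the list's median difference was -0.19 against -0.01 over all genes. After TiO2 1 was called higher and 1 lower, where 6.4% of all genes were called, 4.3% higher and 2.1% lower, with a median of -0.12 against -0.01. After the mixture 1 was called higher and 0 lower, with a median of -0.05 against -0.01, and for the interaction 2 were called above 0 and 1 below, with a median of 0.14 against 0.00. Of the 24 estimates 29.2% were above 0 after paraquat and 66.7% for the interaction. The share called lower after paraquat was 12.5%, against 4.06% of all genes, and for the interaction 8.33% were called above 0 and 4.17% below, against 5.41% and 6.36%. Ncbp1, the large subunit of the nuclear cap-binding complex, was called lower after both agents. Its controls were at 371.9, 380.8, 361.7 and 375.5, paraquat at 304.7, 301.4 and 301.6, TiO2 at 286.4, 314.1, 308.1 and 292.4, and the mixture at 306, 310.2, 366.2 and 367.1. Both agents lay wholly below control, and the mixture split, with libraries 1 and 2 at the level of the single agents and 3 and 4 at that of control. Ncbp1 fell by 0.30 after paraquat and by 0.31 after TiO2, and its interaction was 0.46 (adjusted p of 0.0173 in limma). Sem1 and Eny2, small subunits that serve TREX-2 among other complexes, fell by 0.40 and 0.34 after paraquat, and Cetn2, a centrin of TREX-2, had an interaction of 0.57. With the trend with GC content removed from each library, 0 of the 3 genes lower after paraquat were still called, and the interaction of Cetn2 had an adjusted p of 0.111. The list's count of calls after paraquat was 2 without control 1, control 4, paraquat 1 or paraquat 3 and 8 without TiO2 3. After TiO2 it was 1 without control 1, control 4 or TiO2 1. For the interaction it was 7 without control 2 or paraquat 2, 5 without TiO2 1 and 9 without TiO2 4.

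Zc3h11a, a zinc finger protein of the TREX complex, moved the other way. Its controls were at 277.6, 162, 203.2 and 258.5, paraquat at 454.5, 416 and 431.9, TiO2 at 435.8, 389.4, 373.3 and 407.7, and the mixture at 339.6, 377.5, 351.7 and 370.2. Every exposed library was above every control, though the share of all genes with such a separation was not counted. The rises were 0.97, 0.86 and 0.70 on the log2 scale after paraquat, TiO2 and mixture, with an interaction of -1.13. This gene is uncertain, since 65.2% of its 50-base stretches occur in other genes, chiefly the overlapping Gm38394 on the same strand.

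Counts in the Rag and mTORC1 list were near the background. Of the 44 tested genes besides Rragb, 3 were called higher and 0 lower after paraquat (6.82% higher, against 6.34% of all genes), with a median of 0.03, and 1 higher and 1 lower after TiO2 (2.27% each way, against 4.3% and 2.1%), with a median of 0.04. After the mixture limma called 0 of 44, with 2 at an unadjusted p under 0.05 and 0 by edgeR and by DESeq2, where 1.19% of all genes were called. For the interaction 4 were called above 0 and 2 below (9.09% and 4.55%, against 5.41% and 6.36%), with a median of -0.09. The medians over all genes were -0.01, -0.01, -0.01 and 0.00. These counts rest on borderline tests. The count after paraquat was 0 without control 1 or paraquat 1, 1 without paraquat 3 and 7 without TiO2 3. After TiO2 it was 1 without control 1, control 4 or TiO2 2, 0 without TiO2 3 and 4 without TiO2 4. For the interaction it was 0 without paraquat 1, TiO2 3 or mixture 4, 1 without mixture 2, 2 without control 1, control 4 or paraquat 3, 3 without TiO2 2 and 11 without TiO2 4. Removing the GC trend left 2 calls for the interaction.

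Among the GTPases, Rragc, which encodes a pairing partner of RagB, was called lower after TiO2. Its controls were at 931.3, 1042, 857.5 and 949.6, paraquat at 819.7, 880.8 and 757.9, TiO2 at 759.5, 815.4, 673.4 and 764.7, and the mixture at 864.5, 822.3, 808.4 and 832.9. All TiO2 libraries were below all controls, and the TiO2 and mixture groups overlapped, unlike those of Rragb. Rragc fell by 0.33 after TiO2, and its interaction was 0.35 (adjusted p of 0.0490 in limma, and 0.412 with the GC trend removed). For Rraga, the closest paralog of Rragb, no comparison was called. Its controls were at 1342, 1341, 1231 and 1242, paraquat at 1095, 1081 and 1083, TiO2 at 1202, 1127, 969.4 and 1228, and the mixture at 1219, 1186, 1169 and 1203. Its paraquat libraries lay below all controls. Paraquat minus control was -0.25 ± 0.08 (SE) and the interaction 0.33 ± 0.11, both with the sign of Rragb and with adjusted p of 0.0519 and 0.0518 in limma. Rragd, the other RagC-type partner, ranged over all libraries from 842.7 to 1011, with no call.

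The Ragulator subunits went different ways. Lamtor1, the lipid-anchored subunit, had controls at 67.3, 74.3, 69.2 and 59.96, paraquat at 112.1, 87.3 and 89.5, TiO2 at 88.2, 78.3, 104.4 and 65.6, and the mixture at 64.4, 70.5, 79.1 and 60.7. It rose by 0.50 after paraquat and had an interaction of -0.77, but 25.6% of its 50-base stretches occur in other genes, chiefly Lrrc51 on the other strand. Lamtor5 had an interaction of 0.53, with 14.5% of its stretches in other genes. Lamtor2, Lamtor3 and Lamtor4 had no call.

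Of the other pathway genes, Castor2, a paralog of the arginine sensor Castor1, and the mTORC1 inhibitor Akt1s1 rose by 0.39 and 0.38 after paraquat, and Tsc2, which restrains the mTORC1 activator Rheb, rose by 0.32 after TiO2. Castor2 had an interaction of -0.47. Rheb itself and the S6 kinase Rps6kb1, a target of mTORC1, had interactions of 0.51 and 0.43. With the GC trend removed, the interactions of Castor2, Rheb and Rps6kb1 had adjusted p of 0.0843, 0.106 and 0.231 in limma. Mtor, Rptor and Flcn had no call in any comparison.

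**Figure D4:**
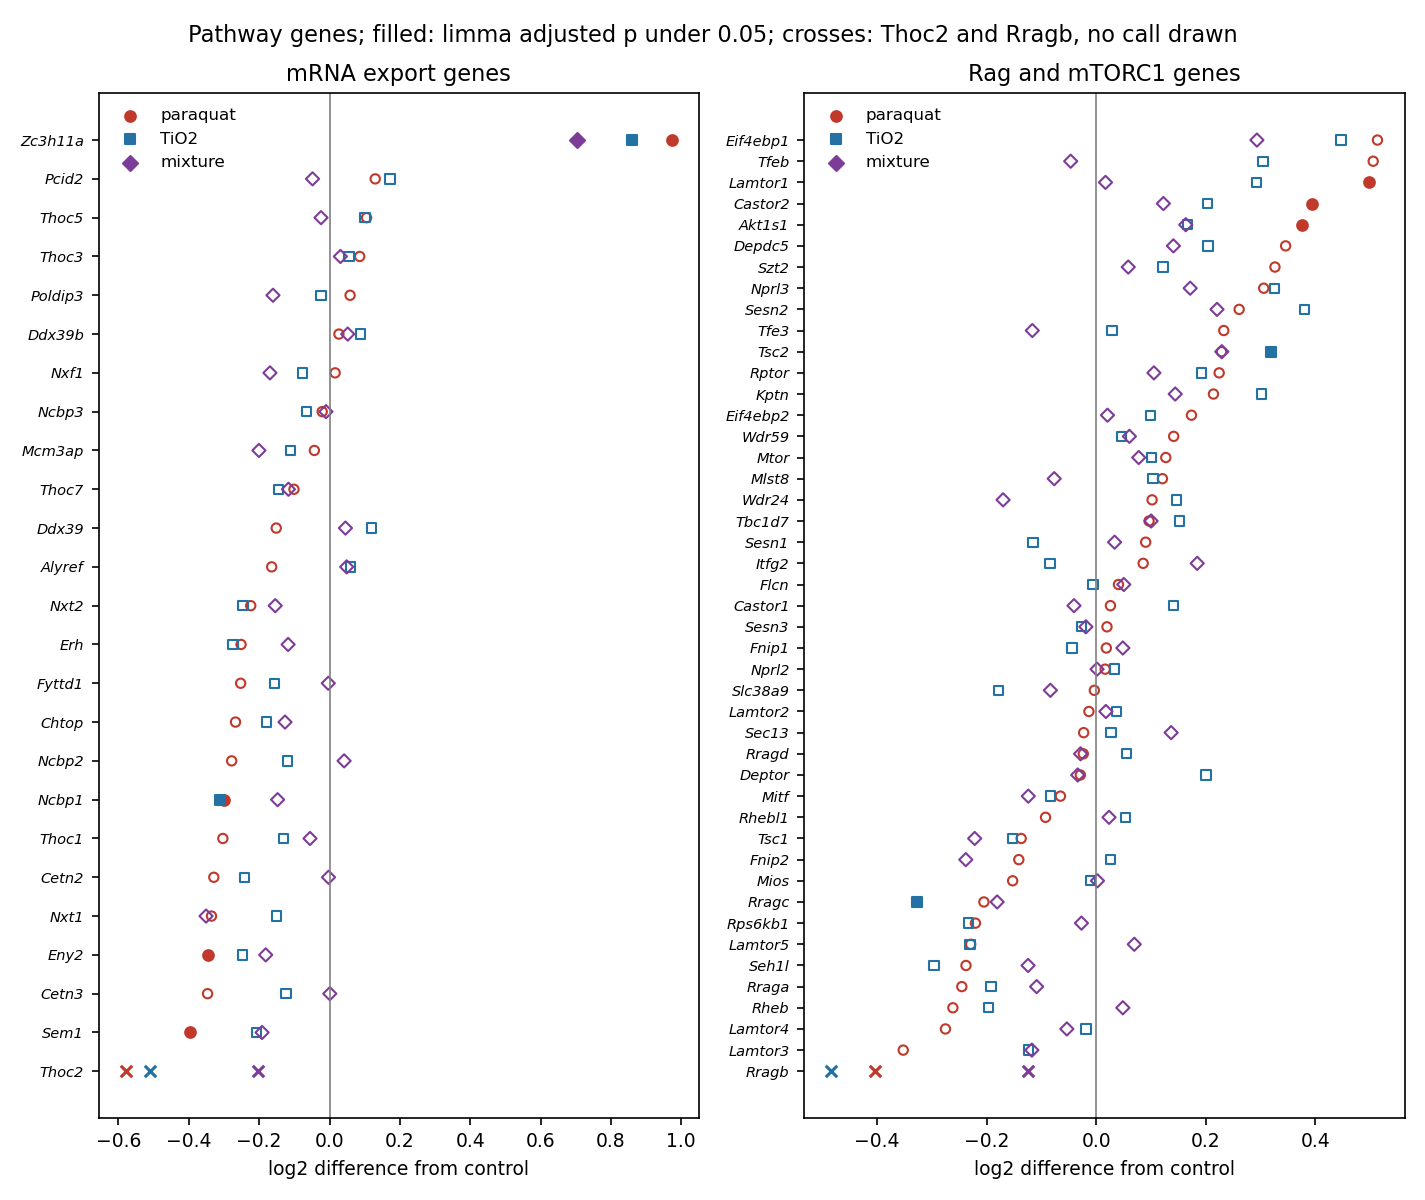
Log2 difference from control (horizontal axis) of each mRNA export gene (left) and each Rag and mTORC1 gene (right) after paraquat, TiO2 and the mixture, ordered by the paraquat value. Filled symbols passed an adjusted p of 0.05 in limma, and crosses show Thoc2 and Rragb, for which no call is drawn. Apart from Zc3h11a most symbols lie within 0.4 of 0. The low place of Thoc2 and Rragb follows from how they were chosen.

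By Pearson correlation of log2(value + 1) over the 15 libraries, the gene most like Dbpht2 was Jak2 (0.92), and Hnrnpu, Suz12 and Rala were among the next closest. The gene most like Thoc2 was Suz12, a subunit of Polycomb repressive complex 2 (0.98), followed by Srsf7, Luc7l3, AC127249.1 and Jak2. The gene most like Rragb was Fut8 (0.96), followed by A830082N09Rik, Nckap1, Srsf1 and Brms1l. Libraries of a group share the treatment, so these values describe the pattern of group means first. After the group means were removed, Suz12 remained the closest to Thoc2 (0.95) and Fut8 was the third closest to Rragb (0.89), behind Apoo-ps (0.91) and Cct8 (0.91), while the closest to Dbpht2 was Exoc1 (0.92), which is not among its first 5 over the group means. Suz12 stood at 336.7, 317.9, 338.3 and 353.9 in control, 255, 286.1 and 257.5 after paraquat, 284.3, 274.5, 258.9 and 303.3 after TiO2 and 323.8, 316.8, 305.9 and 329 after the mixture. As for Thoc2, control 2 was its lowest control, paraquat 2 its highest paraquat library, and TiO2 3 and TiO2 4 the ends of its TiO2 group. Between the members the coefficient was 0.90 for Thoc2 and Rragb, 0.83 for Dbpht2 and Thoc2 and 0.77 for Dbpht2 and Rragb. With group means removed it was 0.65, 0.40 and 0.18, so within groups Dbpht2 varied largely apart from the other two.

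Several measures of the libraries ran alongside the members. Transcripts of Dbpht2 and Thoc2 are poor in G and C, with a GC content of 40.3% and 37.2%, lower than in all but 4.89% and 1.20% of genes, while Rragb at 48.9% is near the median of 50.2%. The correlation, across genes, of a library's log2 deviation from the mean of all libraries with transcript GC content was -0.210 ± 0.201 (SD, n = 4) in control, 0.213 ± 0.165 (SD, n = 3) after paraquat, 0.143 ± 0.238 (SD, n = 4) after TiO2 and -0.0976 ± 0.197 (SD, n = 4) after the mixture. Libraries with a high value thus had less RNA from genes poor in G and C. The library with the lowest Thoc2, TiO2 3, had the highest value (0.451), and that with the lowest value, control 1 (-0.383), had the second highest Thoc2. Against control the exact two-sided permutation p was 0.114 after paraquat, 0.0857 after TiO2 and 0.400 after the mixture, and the Benjamini-Hochberg adjusted values over 6 tests were 0.171, 0.171 and 0.400.

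With the GC trend removed from each library, the interaction was 0.65 for Dbpht2, 0.53 for Thoc2 and 0.70 for Rragb. Paraquat minus control became -0.40, -0.39 and -0.36, and TiO2 minus control -0.21, -0.31 and -0.45. All kept their sign, those of Dbpht2 and Thoc2 shrank, and those of Rragb moved least. Mitochondrial transcripts took 21.0% ± 0.916 (SD, n = 4) of the signal in control, 17.8% ± 0.911 (SD, n = 3) after paraquat, 18.9% ± 1.87 (SD, n = 4) after TiO2 and 19.9% ± 0.973 (SD, n = 4) after the mixture, the same order of groups as Dbpht2 and Thoc2, with exact two-sided permutation p of 0.0571, 0.0571 and 0.171 against control and adjusted values of 0.171, 0.171 and 0.206.

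Markers of some cell types also differed between groups. Of 8 oligodendrocyte markers, 7 were called higher after paraquat, 1 after TiO2 and 0 after the mixture (3 there at an unadjusted p under 0.05 in limma), and for the interaction 5 were called below 0. Of all genes, 6.34%, 4.3% and 1.12% were called higher after paraquat, TiO2 and mixture and 6.36% below 0 for the interaction. Their summed level ranged from 39110 to 58210 in control, 86100 to 99440 after paraquat, 53680 to 84540 after TiO2 and 46440 to 80560 after the mixture. Of 14 markers of medium spiny neurons, the main striatal neurons, all were detected, as the labelled tissue should show, and 5 were called lower after paraquat (4.06% of all genes), 2 after TiO2 (2.1%) and 0 after the mixture (0.0707%, with 3 markers there at an unadjusted p under 0.05). For the interaction 3 of these 14 markers were called above 0 (5.41% of all genes) and 1 below (6.36%), with a median of 0.13. Their summed level ranged from 96160 to 105200 in control, 82600 to 91430 after paraquat, 88630 to 98050 after TiO2 and 82240 to 95640 after the mixture. Of 8 tested markers of cortical glutamatergic neurons, 1 was called higher after paraquat, 0 after TiO2 and 0 after the mixture, where 7 had an unadjusted p under 0.05 in limma. Their median log2 difference from control was 0.95, 0.46 and 1.41, and -0.04 for the interaction. Their summed level was low, ranging from 770.7 to 1488 in control, 1530 to 5289 after paraquat, 1103 to 2641 after TiO2 and 2312 to 4234 after the mixture, so mixture and control did not overlap. Other cell types had few calls. Of 6 astrocyte markers 1 was called higher after paraquat, 1 after TiO2 and 0 after the mixture, and 1 below 0 for the interaction. For 6 microglia markers these counts were 0, 1, 0 and 1. Of 5 endothelial and 3 tested choroid plexus markers, 0 were called in these comparisons. In whole tissue, fewer cells of a type and less RNA per cell cannot be told apart. The part of GC content, mitochondrial share and cell makeup in the values of Dbpht2, Thoc2 and Rragb was not tested beyond the removal of the GC trend.

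**Figure D5:**
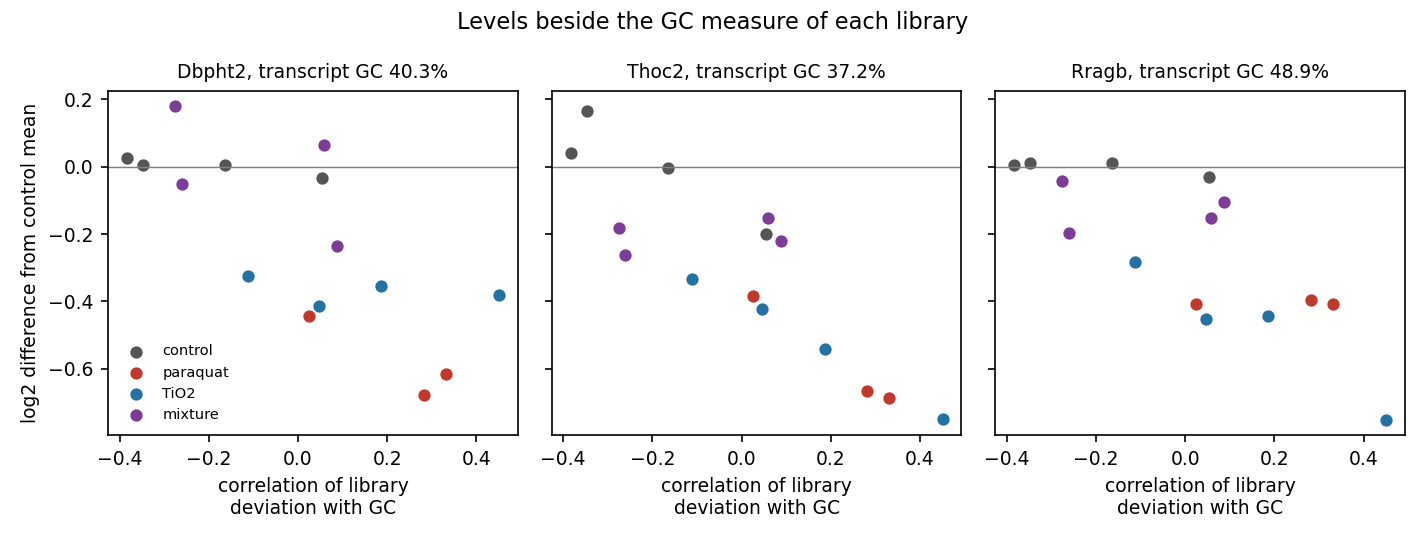
Log2 difference of each member from its control mean (vertical axis) against the correlation of the library's log2 deviations with transcript GC content (horizontal axis). Each point is 1 library, coloured by group. The 4 libraries with the highest values on the horizontal axis are of paraquat or TiO2, the groups overlap along it, and TiO2 3, at 0.451, has the lowest Thoc2 and Rragb.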

How the data were processed

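Striatal RNA of 15 libraries was sequenced; groups and library numbers come from the labels. Per the labels' protocols, the library kit was SENSE total RNA (Lexogen) and the sequencer a NextSeq500. Per the submitters' processing notes, Bowtie2 2.3.2.2, DESeq2 2.1.8.3 and mm10 were used; for counter, annotation and strand the sources used here give nothing. The authors deposited a normalised signal: read counts divided by a size factor per library. From the steps of the values, 100% came out whole within 0.001 of a read, at 8690925 to 14207513 reads per library, and this is claimed for 11 libraries whose step is not near 1. Reads are not independent molecules, so depth covers counting error only. Pairs within a group differed beyond counting noise (chi-square per degree of freedom 3.02 to 25.1).

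The members and lists were chosen with earlier results of these data known. limma 3.58.1 (R 4.3.3) was fitted to log2(value + 1), with trend and robust options, on all 15 libraries with a mean per group, over the 15556 genes kept by filterByExpr of edgeR 4.0.16, and checked on simulated data. A gene was called where its p, adjusted over these genes by Benjamini-Hochberg, was under 0.05. Fold changes are on this log2 scale, which understates low genes. Named are the members, their direct partners, up to 12 called genes per list and comparison, the 5 most alike, those beside the threshold and neighbours within 500 kb; 1 gene so chosen is not reported here. Counts of the count tests on recovered reads (edgeR, DESeq2 1.42.0, voom) and other alternatives stand in the closing section.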

Additional observations from a re-analysis of the deposited data

Results flagged for a closer look

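Dixon's criterion at 95% was applied to 132 groups of 4 libraries, those of the named genes examined, of the mitochondrial share and of the GC measure, and 4 groups held a library set apart from the others, where chance gives about 1 in 20. Rragb was at 918.5 in control 2, with the other 3 controls between 942.7 and 946.6. Snapc1 was at 271.4 in control 2, with the others between 326.6 and 337.7. Xiap was at 1007 in control 2, with the others between 1146 and 1174. Usp51 was at 16.4 in mixture 4, with the others between 9.36 and 9.90.

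The difference between the effect of an agent alone and in the mixture, which is the interaction, was 0.94 for Dbpht2, 0.89 for Thoc2 and 0.76 for Rragb, and these values chose the genes. Genes named beside them whose interaction passed an adjusted p of 0.05 in limma were Ncbp1 (0.46), Cetn2 (0.57), Zc3h11a (-1.13), Rragc (0.35), Lamtor1 (-0.77), Lamtor5 (0.53), Castor2 (-0.47), Rheb (0.51), Rps6kb1 (0.43) and Stag2 (0.48).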

How the results depend on the processing

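No call changed direction under the alternatives run, and the interaction, paraquat and TiO2 differences of the 3 genes kept their sign throughout. Removing the GC trend moved the values of Dbpht2 and Thoc2 in these 3 comparisons by more than the spread between libraries, and left 1078 genes called for the interaction. The mixture minus control of Dbpht2, near 0, changed sign under 3 of 27 alternatives, paraquat minus TiO2 of Rragb under 1 of 27, and the Xist slope, also near 0, under 2 of 16 for Rragb and 1 of 16 for Thoc2; none of these was called. Leaving out 1 library gave interactions of 0.87 to 1.01 for Dbpht2, 0.81 to 0.98 for Thoc2 and 0.67 to 0.83 for Rragb. It gave 665 to 2016 genes called for paraquat, 467 to 1397 for TiO2, 52 to 261 for the mixture, 0 to 11 between the agents and 882 to 2313 for the interaction. DESeq2 called 300 genes for the mixture and 15 between the agents. With the replicate block 290 and 3 were called there, against 185 and 0 without it, and the interactions were 0.91, 0.85 and 0.73. The block gave 1482 calls for paraquat, 1354 for TiO2 and 1768 for the interaction, against 1617, 996 and 1832 without it. Correlations between same-numbered libraries ran from -0.186 to 0.271 (21 pairs, 8 of them over 0.1). Their median was -0.00198, against -0.0156 for other pairs. Whether the numbers pair the libraries cannot be told from this, since weak sharing can leave such correlations near 0. Of the called pathway genes and neighbours, only Zc3h11a kept every call under all alternatives. Calls of Akt1s1, Castor2, Cetn2, Eny2, Lamtor1, Lamtor5, Rheb, Rps6kb1, Rragc, Sem1, Stag2, Tsc2 and, against control, Ncbp1 were lost under at least 1 of them, with removal of the GC trend or of a library, with the replicate block (Eny2 and Lamtor1 after paraquat, the interaction of Rps6kb1) or in a fit of the groups compared alone (Lamtor1 and Ncbp1 after paraquat). The cause was not tested. At 667 to 992.5 reads per library, depth limits differences of a few percent between libraries.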
